A study of Mus musculus with 82 samples.

Results

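Transcripts of 10 genes that are best known from neutrophils were followed in pristane granulomata of mice: the calcium-binding proteins S100a8 and S100a9, the cytokine receptor Csf3r, and the granule proteins Ltf, Lcn2, Camp, Ngp, Mmp8, Elane (older symbol Ela2) and Mpo. They were chosen by name, from every probe set annotated to these symbols. Each had 1 probe set, so that they make up 10 of the 12393 genes named by a single symbol on the array. All mice were BALB/c.iMycEμ, a strain in which Myc was placed under the enhancer of the antibody heavy chain. At an age of at least 8 weeks they had received 0.5 ml of pristane, a mineral oil that induces plasma cell tumors in the peritoneal cavity. Cells positive for methyl green pyronin, a stain for plasma cells, were cut from frozen granuloma sections by laser (called captured cells here), and undissected sections gave whole granuloma RNA. The mice formed 2 independent cohorts, called study 1 and study 2. In study 2 each of days 7, 17, 33, 49 and 105 had 3 specimens, every one with 2 captured arrays and 1 whole granuloma array. Study 1 had 4, 4, 3, 3 and 1 specimens of captured cells at days 7, 17, 33, 46 and 104, and 2, 2, 3 and 1 of whole granuloma at days 7, 17, 33 and 104. No group was without pristane or without the Myc insertion, so that no untreated level exists for any of the 10 genes. The granuloma is a mixture of cells, and the capture selects by stain and shape, not by a surface marker. Labels do not tie every specimen code to an animal, so p-values measure the spread between specimens.

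Neutrophils make their granule proteins in a fixed order as they mature in bone marrow. Mpo and Elane are made for the primary granules of promyelocytes, Ltf, Lcn2, Camp and Ngp for the secondary granules of myelocytes and metamyelocytes, and Mmp8 for the later secondary and tertiary granules. S100a8 and S100a9 form calprotectin, the most abundant protein of the neutrophil cytosol, and are also made by monocytes and by stimulated macrophages and epithelium. Lcn2, a binder of bacterial siderophores, is likewise made by macrophages and epithelium. Csf3r is the receptor for the granulocyte growth factor G-CSF and stays on mature neutrophils and monocytes.

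Among the 10 genes 5 lie in 2 neighbourhoods of the genome. S100a8 (chr3:90669071-90670034) and S100a9 (chr3:90692630-90695721) are neighbours on chromosome 3, and Camp (chr9:109847377-109849456), Ngp (chr9:110419808-110423012) and Ltf (chr9:111019292-111042766) lie in 1 stretch of chromosome 9 (RefSeq, build GRCm38.p6). Their promoter windows, from 250 bases before to 50 bases after the annotated start, are printed because these genes moved together within each group. All 10 members had such a window. Capitals mark 3 motifs searched on both strands: TTNNGCAA, the core bound by C/EBP factors, which drive granule genes; GAGGAA, a core bound by the myeloid factor PU.1; and TATAAA, the TATA box. Each sequence runs 5′ to 3′ on the strand of its gene.
Ngp (plus strand, chr9:110419558-110419857): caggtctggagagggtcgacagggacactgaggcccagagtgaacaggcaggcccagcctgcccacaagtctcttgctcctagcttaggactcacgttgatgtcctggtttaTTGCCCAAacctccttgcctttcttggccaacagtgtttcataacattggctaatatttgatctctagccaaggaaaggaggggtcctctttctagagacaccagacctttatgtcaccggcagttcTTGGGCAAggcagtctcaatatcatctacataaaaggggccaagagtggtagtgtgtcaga
Ltf (plus strand, chr9:111019042-111019341): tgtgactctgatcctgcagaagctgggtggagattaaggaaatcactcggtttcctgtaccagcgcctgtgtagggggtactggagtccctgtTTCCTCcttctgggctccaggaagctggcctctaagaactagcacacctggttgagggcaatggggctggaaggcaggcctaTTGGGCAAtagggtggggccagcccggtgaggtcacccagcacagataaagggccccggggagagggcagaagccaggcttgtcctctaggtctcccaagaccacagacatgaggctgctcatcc
Camp (minus strand, chr9:109849407-109849706): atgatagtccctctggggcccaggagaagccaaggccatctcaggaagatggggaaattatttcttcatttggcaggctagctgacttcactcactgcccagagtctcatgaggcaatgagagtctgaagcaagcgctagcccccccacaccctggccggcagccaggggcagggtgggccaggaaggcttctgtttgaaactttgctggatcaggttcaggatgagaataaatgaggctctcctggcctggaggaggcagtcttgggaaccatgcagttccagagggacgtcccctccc
S100a8 (plus strand, chr3:90668821-90669120): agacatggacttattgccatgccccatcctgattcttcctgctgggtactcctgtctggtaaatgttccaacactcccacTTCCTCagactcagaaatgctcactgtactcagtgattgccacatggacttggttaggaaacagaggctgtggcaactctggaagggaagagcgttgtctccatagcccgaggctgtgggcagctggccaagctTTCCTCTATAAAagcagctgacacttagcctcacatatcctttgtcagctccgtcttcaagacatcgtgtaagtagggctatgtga
S100a9 (minus strand, chr3:90695672-90695971): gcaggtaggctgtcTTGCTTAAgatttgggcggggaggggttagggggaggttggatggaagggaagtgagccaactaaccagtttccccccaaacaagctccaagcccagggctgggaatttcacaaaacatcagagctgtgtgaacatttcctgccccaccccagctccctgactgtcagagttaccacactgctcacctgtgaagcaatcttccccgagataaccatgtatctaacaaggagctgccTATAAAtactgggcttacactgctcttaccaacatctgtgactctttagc
The window of Ngp held 2 matches to TTNNGCAA, and those of Ltf and S100a9 1 each. The windows of Lcn2 and Mmp8 also held it, so that 5 of 10 members did, against 10.8% of 32851 windows in the table. GAGGAA stood in 7 of 10, among them S100a8 with 2 matches, against 28.3% of windows. TATAAA stood in 3 of 10 (S100a8, S100a9 and Mmp8), against 13.6%. Only in S100a8 did it lie on the strand of the gene and before the start, from base −30. In S100a9 it began at base 1, after the annotated start, and in Mmp8 it lay on the opposite strand from base −3. Camp held none of the 3. Both GAGGAA matches of S100a8 were on the opposite strand, and the second ended directly before the TATAAA match. These are matches of letters and not measured binding.

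The deposited values are log2 values, and their scale differed between the tissue types. In study 2 array medians ranged from 5.31 to 5.64 for captured cells and from 7.11 to 7.33 for whole granuloma, and in study 1 from 4.97 to 5.11 and from 5.73 to 5.82. Days were therefore compared within a tissue type on the deposited values, and tissue types on values brought to 1 distribution by quantile normalization. A gene was tested where it exceeded the median of its column in at least 3 of 53 specimen averages, which held for 8592 genes, and a gene was called at an adjusted p under 0.05 in limma. Of 9 plasma cell markers 4 were higher in captured cells of study 1 and 6 in study 2, where 31.5% and 34.4% of all genes were. None was lower, where 29% and 35.4% of all genes were. Captured cells were not free of other cells' RNA: the mean level of 12 macrophage markers was 7.00 to 10.02 in captured specimens of study 1 and 7.66 to 10.08 in those of study 2, on the quantile scale, against 10.19 to 10.82 and 8.44 to 10.52 in whole granuloma. A single captured array of study 2 (day 49, specimen 2) stood apart, with a median correlation of 0.26 with the other arrays of its kind, which had 0.87 to 0.98. The other array of the same specimen read 11.72 for S100a8 where this array read 8.41, and the values that it moved most are given with and without it. On that array Xist was 4.06 and Eif2s3y 4.27, against 11.22 and 2.81 on the other array of its specimen. In study 1 the 2 captured arrays of specimen 5 of day 7 had opposite sex-linked transcripts (Xist 11.65 and 4.90, Eif2s3y 2.83 and 7.70). At day 104 the whole granuloma arrays read 7.93 to 8.42 for Eif2s3y and the captured arrays of the same code 3.38 to 4.64, with Xist at 4.29 to 4.49 and 4.35 to 6.70. The arrays of specimen 5 of day 7 thus carried opposite patterns under 1 code. On the array that stood apart and on the captured arrays of day 104 neither transcript reached its higher level in that specimen. Whether these arrays share an animal with their code cannot be told. Part of the results that include day 104 are also given without it. The gene lists of study 1 are given only with it.

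S100a8 and Csf3r exceeded the column median in 53 of 53 specimen averages and S100a9 in 51. Lcn2 did so in 35, Ngp in 30, Camp in 18 and Ltf in 14. The primary granule genes Elane and Mpo did so in 3 each, and Mmp8, a collagenase, in 1, so that Mmp8 was not tested. Of the 7 neutrophil markers on the array, Cd177, Itgb2l and Trem1 were above the column median in 0 specimens of any group. The lectin Clec4d was above it in all. In whole granuloma of studies 1 and 2 Il1r2 exceeded it in 8 of 8 and 12 of 15 specimens. Mmp9 did so in 8 of 8 and 13 of 15, and Cxcr2 in 6 of 8 and 10 of 15. Of 15 captured specimens in each study, Il1r2 did so in 8 and 12, Mmp9 in 3 and 6, and Cxcr2 in 15 and 0.

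S100a8 and S100a9 were high in whole granuloma of study 2 up to day 49 and lower at day 105. The 3 specimens of S100a8 read 10.63, 11.25 and 10.83 at day 7, 10.97, 10.94 and 12.00 at day 17, and 11.37, 11.01 and 11.42 at day 33. They read 12.98, 12.04 and 10.75 at day 49 and 9.85, 8.43 and 8.27 at day 105. All 3 specimens of day 105 thus lay below the 12 of the earlier days. S100a9 read 9.26, 10.11 and 9.22 at day 7, 12.92, 11.29 and 8.77 at day 49, and 8.27, 6.46 and 6.89 at day 105. Day 105 again lay below every earlier specimen, and day 49 had the widest spread. From day 7 to day 105 S100a8 fell by 2.05 on the log2 scale (SE 0.61, a 4.14-fold decrease, adjusted p = 0.0152, limma) and S100a9 fell by 2.32 (SE 0.78, 4.99-fold, adjusted p = 0.0301). These were 2 of the 9 members tested, where 18.9% of all genes changed, 12.9% downwards. Without specimen 1 of day 7 the fall of S100a9 missed the threshold (adjusted p = 0.0612), and both missed it without specimen 2 of day 7 (0.0767 and 0.139), specimen 2 of day 105 (0.0874 and 0.162) or specimen 3 of day 105 (0.101 and 0.117). In bulk samples fewer cells of a type and less RNA per cell cannot be told apart.

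The test over all 5 days of whole granuloma of study 2 called 3 members, S100a8, S100a9 and Csf3r, where 24.4% of genes were called. The means of S100a8 spanned 3.08 on the log2 scale (adjusted p = 0.00258) and those of S100a9 3.79 (0.00566). Csf3r was highest at day 49 (9.40 ± 0.32, SD, n = 3) and lowest at day 105 (8.36 ± 0.45), a span of 1.04 (adjusted p = 0.0241). At day 49 its specimens read 9.77, 9.20 and 9.23, and at day 105 8.88, 8.15 and 8.06. That call was lost without specimen 1 of day 49 (0.162) or specimen 2 or 3 of day 105 (0.0816 and 0.0842), and that of S100a9 without specimen 2 of day 105 (0.0606). Lcn2 read 8.49, 10.61 and 8.31 at day 7 and 8.35, 6.41 and 8.23 at day 105. Its specimens overlapped, and its change of −1.47 (SE 0.59) had an adjusted p of 0.0742, and it passed without specimen 3 of day 7 (0.0293) or specimen 1 of day 105 (0.0392). Ngp (−0.46), Camp (−0.40) and Ltf (0.08) had adjusted p-values of 0.728 to 0.958 for the same days.

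**Figure D1:**
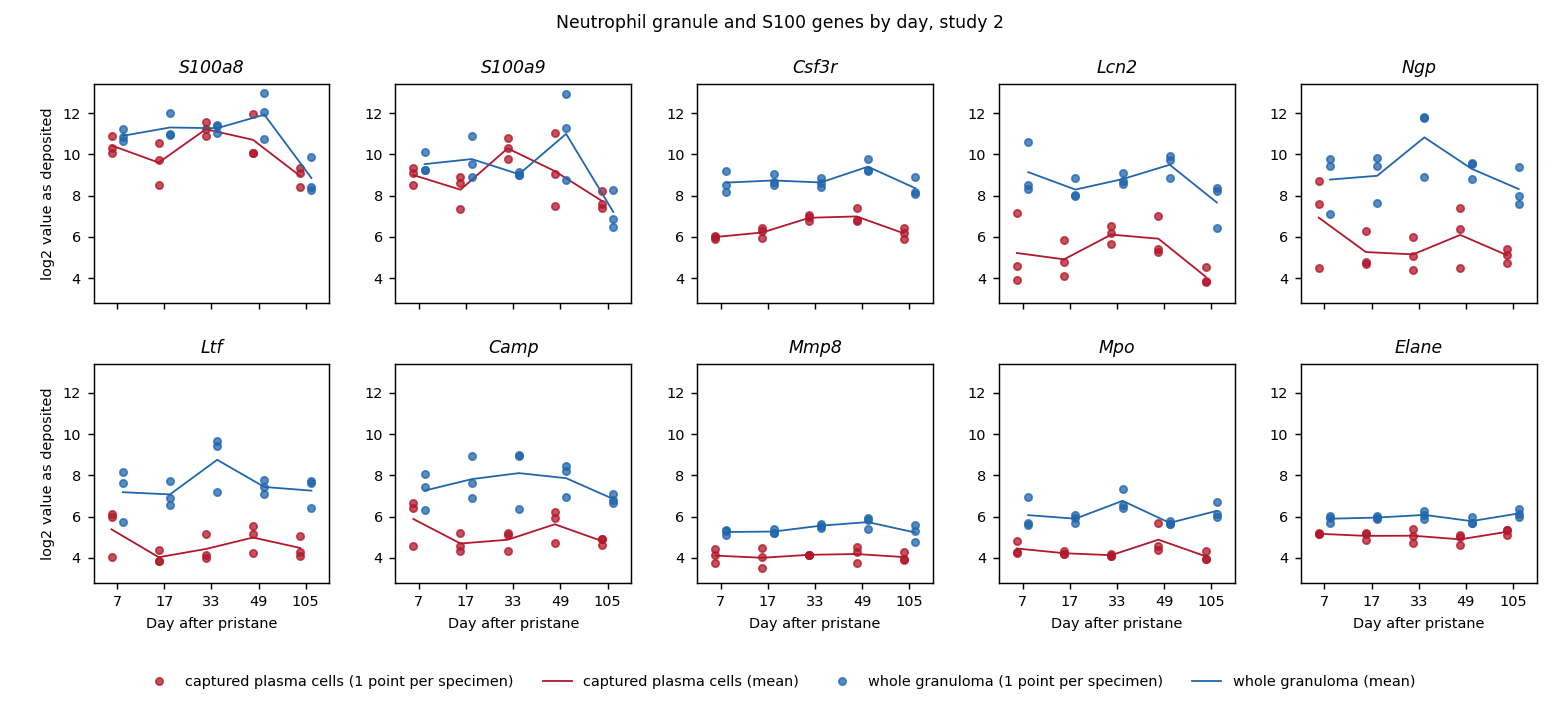
Deposited log2 values of the 10 genes in study 2 by day after pristane, with 1 point per specimen (3 per day and tissue type) and lines through the day means, captured cells in red and whole granuloma in blue. S100a8 and S100a9 of whole granuloma are lowest at day 105, Ngp and Ltf are highest at day 33 in 2 of 3 specimens, and Mmp8, Mpo and Elane stay low. The heights of the colours also carry the difference in scale between the tissue types.

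Of the related lists, the other S100 genes fell at day 105 of whole granuloma throughout and the rest in part, where 12.9% of all genes fell. Of 6 other S100 genes tested all 6 fell, among them S100a4 (−2.33, SE 0.58), S100a6 (−2.20, SE 0.51), S100a10 (−1.87) and S100a16 (−1.51), with a median of −1.69 against −0.03 over all genes. S100a1 (−1.41) and S100a13 (−1.29) completed them. Of 20 other granule and neutrophil genes 10 fell and 0 rose, led by Chil3 (−4.20, SE 0.74, adjusted p = 9.16e-05), a chitinase-like protein of neutrophils and macrophages, and by the lectin Clec4e (−2.94), the haptoglobin gene Hp (−2.46) and Anxa3 (−2.05). Receptors that bind the proteins of these genes or take part in their signalling fell in 3 of 7: Cd36 (−2.46), Cd14 (−2.02) and Tlr4 (−1.77). Chemokines and cytokines that recruit neutrophils fell in 3 of 6: Cxcl1 (−2.38), Cxcl5 (−2.02) and Il1b (−1.40). Of 10 factors of neutrophil formation 3 fell, Cebpd (−1.91), Csf2ra (−1.29) and Socs3 (−1.19), a target of STAT3. The NADPH oxidase, which makes the oxidative burst, changed in 1 of 5 genes, and Cybb was at 0.36 (adjusted p = 0.75).

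Markers of other cells moved over the same days. Of the 4 neutrophil markers tested only Clec4d fell (−1.92, SE 0.50), while Mmp9 was at −1.02, Il1r2 at −0.26 and Cxcr2 at −0.09. The mean level of the 7 neutrophil markers on the array was 5.54 to 6.04 at day 7 and 5.10 to 5.37 at day 105, on the quantile scale. Of 12 macrophage markers 3 fell and 1 rose, and their mean level went from 9.57 to 10.36 at day 7 to 8.44 to 9.71 at day 105. Of 7 markers of epithelium and mesothelium 4 fell and 1 rose, of 4 adipocyte markers 2 fell, and of 9 plasma cell markers 5 rose. The part of these cells in the fall of S100a8 and S100a9 was not tested.

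In captured cells of study 2 the same pair was highest at days 33 and 49 and lowest at day 105. S100a8 read 10.32, 10.89 and 10.09 at day 7, 10.57, 8.49 and 9.74 at day 17, and 11.58, 10.87 and 11.21 at day 33. It read 11.98, 10.06 and 10.07 at day 49 and 9.35, 8.41 and 9.08 at day 105. Days 33 and 105 did not overlap, and day 17 overlapped day 105. The test over days called S100a8 (span 2.27, adjusted p = 0.0409) and Csf3r (span 1.00, adjusted p = 0.0094), 2 of 9 members, where 15.2% of genes were called. Csf3r rose from 5.99 ± 0.07 (SD, n = 3) at day 7 to 6.93 ± 0.15 at day 33, a difference of 0.94 (SE 0.26, adjusted p = 0.0498), the 1 member called where 1.66% of genes were. Its specimens read 6.00, 6.06 and 5.92 at day 7 and 7.06, 6.95 and 6.77 at day 33, with no overlap. The difference of Csf3r missed the threshold when any of those 6 specimens was left out (adjusted p = 0.0601 to 0.365). The call of S100a8 over days was lost without specimen 1 or 2 of day 7, 2 or 3 of day 17, any of day 33, or 2 or 3 of day 105 (0.0505 to 0.129).

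The array that stood apart lowered the day 49 mean of S100a8 from 11.26 ± 1.03 to 10.70 ± 1.10 and that of S100a9 from 10.11 ± 0.99 to 9.19 ± 1.78. Without it 4 members were called over days, S100a9 (span 2.55, adjusted p = 0.0288) and Lcn2 (span 2.22, adjusted p = 0.0252) besides S100a8 and Csf3r, where 15.4% of genes were. The rise of Csf3r from day 7 to day 33 then had an adjusted p of 0.0264, where 4.75% of genes were called. From day 7 to day 105 captured cells differed by −1.48 for S100a8 (SE 0.61, adjusted p = 0.147) and −1.26 for S100a9 (SE 0.78, 0.385), and 0 of 9 members were called in limma where 6.82% of genes were. At an unadjusted p under 0.05 it was 1 member, S100a8. For this and later counts at an unadjusted p the share of all genes was not counted. Ngp was at −1.83 (SE 0.91, adjusted p = 0.25), and without specimen 3 of day 7, its lowest there, at −3.04 (0.0294). The difference between that change and the change in whole granuloma was 0.57 for S100a8 (SE 0.81, adjusted p = 0.756) and 1.06 for S100a9 (SE 1.03, 0.622), and called 0 members, where 3.41% of genes were called. Specimen 2 of day 7 and specimen 1 of day 49 held the most Lcn2 of captured cells (7.15 and 7.03), and day 105 the least on average (3.83, 3.85 and 4.53).

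In captured cells of study 1 S100a8 was highest on average at days 33 and 46 and lowest at day 104, where there was 1 specimen. S100a8 read 8.32 to 10.52 in the 4 specimens of day 7, 7.51 to 9.31 in the 4 of day 17, 9.74, 11.50 and 9.50 at day 33, and 10.59, 10.79 and 8.71 at day 46. The single code of day 104 averaged 6.32 over 5 arrays, which read 5.11 to 7.21, below every other specimen. S100a9 read 5.92 there and 7.15 to 10.95 in the other specimens. The span over days was 3.91 for S100a8 (adjusted p = 0.0536) and 3.82 for S100a9 (0.302), and 0 of 9 members were called in limma, where 0.594% of genes were. Without day 104 the spans were 1.63 for S100a8 (adjusted p = 0.595) and 1.498 for S100a9 (0.813). With day 104 included, 4 members had an unadjusted p under 0.05 over days: S100a8, S100a9, Lcn2 and Csf3r. The share of all genes at that threshold was not counted. The day 104 difference from day 7 was −2.78 for S100a8 (SE 0.84, adjusted p = 0.103) and −2.57 for S100a9 (SE 1.06, 0.328), again with 0 members called against 1.02% of genes. With the year in the array titles as a term, it was −2.99 for S100a8 (adjusted p = 0.0164), and over the captured arrays of the later title year alone it was −3.94 (0.0178). Lcn2 stood out at day 46, with 6.03, 7.81 and 6.33 against 3.81 to 5.71 at the other days, with no overlap (span over days 2.62, adjusted p = 0.0756). Without the array of study 2 that stood apart, whose spread enters the shared fit, S100a8 (0.0275) and Lcn2 (0.0414) passed over days, where 1.93% of genes were.

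Whole granuloma of study 1 did not show the fall. S100a8 read 9.60 and 10.32 at day 7, 10.35 and 8.90 at day 17, 10.61, 10.22 and 9.74 at day 33 and 10.62 at day 104, where the code was the same as that of the captured cells. No member was called over the days of whole granuloma (0 of 9 in limma, where 0.0349% of genes were, and 1 at an unadjusted p under 0.05, Mpo), nor between day 104 and day 7 (0 of 9, and 0% of genes). The change in captured cells minus that in whole granuloma was −3.44 for S100a8 (SE 1.18) and −3.74 for S100a9 (SE 1.49), with 0 members in limma and 0% of all genes called, and both at an unadjusted p under 0.05. These values rest on 1 code at day 104 and on arrays whose sex-linked transcripts differ between the tissue types. In whole granuloma Eif2s3y was 2.84 to 2.88 at day 7, against 7.93 to 8.42 at day 104.

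**Figure D2:**
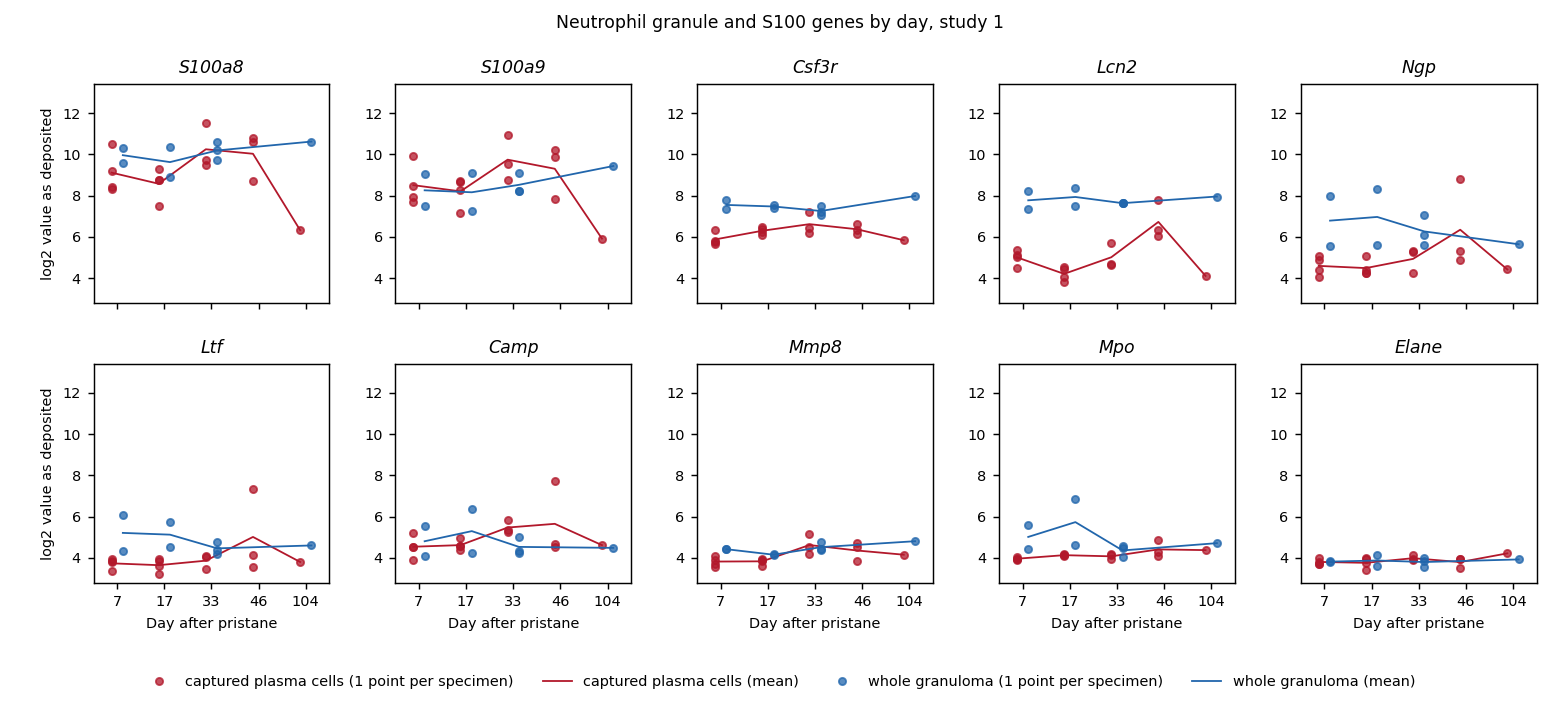
Deposited log2 values of the 10 genes in study 1 by day after pristane, with 1 point per specimen and lines through the day means, captured cells in red and whole granuloma in blue (none at day 46). S100a8 and S100a9 of captured cells lie lowest at day 104, where 1 specimen code was measured, and 1 captured specimen of day 46 is high in Ngp (8.82), Camp (7.73) and Ltf (7.36).

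Captured cells of study 2 held less Lcn2, Ngp and Ltf than whole granuloma, and Lcn2 was lower in both studies. On the quantile scale Lcn2 was 4.11 at the lowest, 5.24 at the median and 7.46 at the highest of 15 captured specimens of study 2, against 4.95, 7.03 and 9.18 in whole granuloma, lower in 15 of 15 specimens. The difference averaged over days was −1.70 (SE 0.26, a 3.25-fold difference, adjusted p = 2.32e-07). In study 1 it was −2.60 (SE 0.36, 6.06-fold, adjusted p = 1.18e-07), lower in each of the 5 specimens that had arrays of both. The code of day 104 had the largest gap (−3.41), against −1.20 to −2.22 in the others. Captured and whole specimens overlapped in both studies (4.16 to 8.26 against 7.15 to 8.28 in study 1). Ngp, an inhibitor of cathepsins, was 4.78, 5.45 and 8.91 at the lowest, median and highest captured specimen and 5.56, 7.92 and 10.90 in whole granuloma of study 2. It was lower in 13 of 15 specimens, by −1.83 (SE 0.38, 3.54-fold, adjusted p = 6.55e-05). The iron-binding protein gene Ltf was 4.22, 4.60 and 6.45 against 4.40, 5.98 and 8.30, lower in 13 of 15 specimens, by −1.07 (SE 0.27, adjusted p = 0.000662). Csf3r differed by −0.48 (SE 0.11, adjusted p = 0.000178, lower in 14 of 15). The antimicrobial peptide gene Camp was lower in 10 of 15 and missed the threshold (−0.58, SE 0.27, adjusted p = 0.0552).

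These were among 7 of 9 members called in study 2, 4 lower and 3 higher, where 69.8% of genes were called, 35.4% lower and 34.4% higher. In study 1 4 of 9 were called, 3 lower and 1 higher, where 60.5% of genes were, 29% lower and 31.5% higher. The median difference of the 9 members was −0.48 in study 2 and −0.61 in study 1, against −0.02 and 0.06 over all genes. In study 1 Csf3r was lower (−0.61, SE 0.16, adjusted p = 0.00103), while Ngp (−1.16, SE 0.55, 0.0648), Ltf (−0.78, SE 0.39, 0.0766) and Camp (0.58, SE 0.38, 0.19) missed the threshold. Camp was higher in captured cells in 5 of 5 specimens of study 1. In that study it exceeded the column median in only 5 of 15 captured and 1 of 8 whole specimens. Without day 104 Ngp (−1.32, adjusted p = 0.0303) and Ltf (−0.85, 0.0479) passed. Mpo was lower too (−0.55, 0.0246), but this call is not independent of the filter, as given below. Csf3r was at −0.34 (0.0496) and Elane missed the threshold (0.24, 0.0853).

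The difference between 3-prime and 5-prime control probe sets, which grows with degraded or short RNA, moved with the tissue type. For captured cells it was 4.14 ± 0.90 (SD, n = 30 arrays) in study 2 and 4.49 ± 0.68 (n = 25) in study 1. For whole granuloma it was 1.61 ± 0.13 (n = 15) and 3.19 ± 0.36 (n = 12). Without the array that stood apart 7 of 9 members were called in study 2 too, where 74.5% of genes were, with S100a9 at 1.33, Ngp at −1.69 and Mpo at −0.13 (adjusted p = 0.351). With the 3-prime to 5-prime difference as a covariate 1 member was still called in study 2, Lcn2, and 2 in study 1. Ngp was then at −0.63 (SE 1.09, adjusted p = 0.667), Ltf at −0.12 (SE 0.77, 0.915) and Csf3r at −0.49 (SE 0.32, 0.215) in study 2.

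S100a8 and S100a9 took no settled direction between the tissue types. On the quantile scale S100a8 was 8.50, 10.55 and 11.81 at the lowest, median and highest captured specimen of study 2 and 6.89, 9.64 and 11.91 in whole granuloma, and was higher in captured cells in 12 of 15 specimens (0.78, SE 0.26, adjusted p = 0.00761). S100a9 was higher in 11 of 15 (1.12, SE 0.34, adjusted p = 0.00398). On the deposited values S100a8 was lower in captured cells in 13 of 15 specimens (−0.67, SE 0.26, adjusted p = 0.0138) and S100a9 in 8 of 15 (−0.41, SE 0.33, 0.222). With the 3-prime to 5-prime covariate S100a8 was at 1.08 (SE 0.74, adjusted p = 0.249) and S100a9 at −0.26 (SE 0.96, 0.85). In study 1 S100a8 was lower in captured cells (−1.03, SE 0.37, adjusted p = 0.015), and without day 104 it was at −0.11 (SE 0.36, 0.798). With each array centred on its median it was −0.78 (adjusted p = 0.063). S100a9 was at 0.15 (SE 0.49, adjusted p = 0.807) and without day 104 at 1.17 (SE 0.48, 0.0311).

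The primary granule genes were near the floor of the arrays. Elane was called higher in captured cells of study 2 (0.84, SE 0.09, adjusted p = 1.06e-10) and of study 1 (0.33, SE 0.13, 0.0242). It had passed the filter only through 3 captured specimens of study 2, the group where it was then called higher. Its calls, also those in the counts of members and between the studies, are therefore not independent of the filter. Its deposited values were 4.60 to 5.41 in captured cells and 5.67 to 6.36 in whole granuloma of study 2, below the median of the column in all but 3 captured specimens, and there the difference was −0.88 (SE 0.08). Mpo was at 0.02 (SE 0.15, adjusted p = 0.912) on the quantile scale and −1.79 (SE 0.15) on the deposited one. It had passed the filter through 3 specimens, 1 of whole granuloma in each study and 1 of captured cells in study 2. That captured specimen was 2 of day 49, where the array that stood apart read 7.08 and the other array 4.27. Calls of Mpo as lower in captured cells are therefore not independent of the filter. The highest whole granuloma specimen of Mpo was specimen 1 of day 33 in study 2 (7.32) and specimen 10 of day 17 in study 1 (6.84). Mmp8 lay between 3.50 and 5.96 in all specimens. In study 2 the sign of the difference of all 3 genes depended on the scaling, while in study 1 Elane was above 0 and Mpo below 0 under all 3 scalings run.

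**Figure D3:**
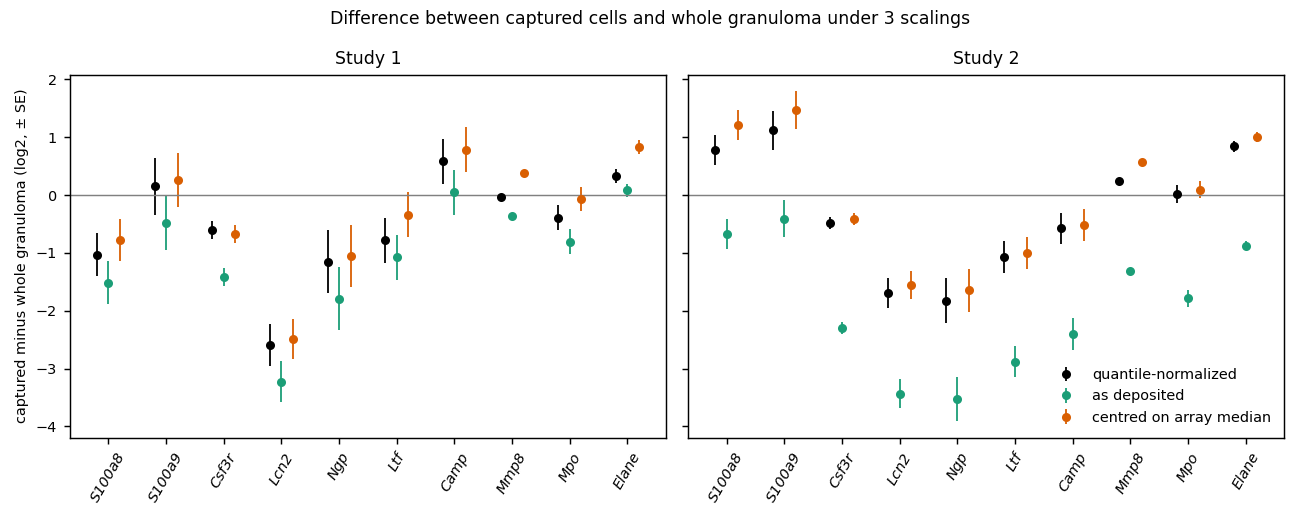
Captured minus whole granuloma for the 10 genes on the log2 scale in study 1 and study 2, averaged over days, with bars of 1 SE (none for Mmp8, which was not tested), for values quantile-normalized, as deposited and centred on the median of each array. Lcn2, Ngp, Ltf and Csf3r lie below 0 under all 3 scalings in both studies, while S100a8, S100a9, Elane, Mpo and Mmp8 of study 2 change side.

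The other granule and neutrophil genes were mostly lower in captured cells. Of 20 tested (28 of 38 listed were on the array) 13 were lower and 1 higher in study 2, with a median of −0.86, and 16 were lower and 0 higher in study 1, with a median of −1.45. In study 2 Hp (−1.61), the lysozyme gene Lyz2 (−1.30), the gelatinase gene Mmp9 (−1.24) and Adam8 (−1.17) were lower and the leukotriene receptor gene Ltb4r1 was higher (0.43). In study 1 Clec4e (−2.75), Anxa3 (−2.63), Hp (−1.98) and Lyz2 (−1.83) were among those lower. Several of these, Lyz2 among them, are macrophage genes too, and of 12 macrophage markers 9 were lower and 1 higher in study 2 and 12 lower in study 1. Of the 4 neutrophil markers tested Mmp9 and Cxcr2 (−0.99) were lower in study 2, and Mmp9 (−1.48), Clec4d (−1.10) and Il1r2 (−0.78) in study 1. Their mean level over the 7 on the array was 4.76 to 6.11 in captured cells and 5.10 to 6.47 in whole granuloma of study 2, and 5.07 to 6.08 and 5.64 to 6.13 in study 1. The part of each cell type in the differences of the members was not tested.

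The other lists had lower and higher genes, where 35.4% of all genes were lower in study 2 and 29% in study 1. Of 10 factors of neutrophil formation, Csf3r counted among them, 6 were lower and 1 higher in each study. Cebpa, the factor that starts granulocyte formation, was lower by −1.96 (SE 0.22) in study 2 and −2.43 (SE 0.31) in study 1. Csf2ra (−1.21 and −0.72) and Stat3 (−0.96 and −0.91) were lower in both, and Cebpb was lower in study 2 (−0.81). Socs3 was higher in study 2 (0.44) and Runx1 in study 1 (0.87). Of 6 other S100 genes 2 were lower in study 2, S100a1 (−0.85) and S100a16 (−0.39), and 3 in study 1, S100a4 (−1.20), S100a1 (−1.14) and S100a6 (−0.86). Of 7 receptors 4 were lower and 1 higher in study 2 and 5 lower and 2 higher in study 1. The lipopolysaccharide and calprotectin receptor gene Tlr4 was at 0.13 (adjusted p = 0.519) in study 2 and −1.96 in study 1, its partner Ly96 was higher in both (0.89 and 0.89), and Cd14 was lower in both (−1.30 and −2.43). Of 6 neutrophil recruiting genes 5 were lower and 1 higher in study 2 and 4 lower and 1 higher in study 1, with Cxcl2 at −2.04 and −3.12 and Tnf at 0.31 and 0.37. Of 5 NADPH oxidase genes 3 were lower in each, with Cybb at −2.41 and −3.23.

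The captured minus whole difference of study 2 was then set against that of study 1, over days 7, 17, 33 and the last day of each. It differed for 3 of 9 members, where 44.9% of genes were called: S100a8 (study 2 minus study 1 1.88, SE 0.47, adjusted p = 0.00122), Elane (0.56, SE 0.16, 0.00471) and Camp (−1.19, SE 0.49, 0.0449). S100a9 was at 1.39 (SE 0.62, adjusted p = 0.0635), and at 1.40 (0.0368) without the array that stood apart. Without the last day of both studies the difference of S100a8 was 0.69 (SE 0.49, adjusted p = 0.265). Camp lost its call without each of 14 of 32 codes in turn, and without the specimen block (−1.18, adjusted p = 0.0642). On the deposited values the difference of S100a8 was 0.98 (SE 0.47, adjusted p = 0.0559), and those of Csf3r (−0.85), Elane (−0.96) and Mpo (−1.23) changed side. Apart from the array that stood apart, the arrays of study 2 had Xist at 10.35 to 12.59, while study 1 held both sex-linked patterns. The part of sex in these differences was not tested.

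Ngp, Ltf and Camp went together, also between arrays of 1 specimen, and their correlations with S100a8 and S100a9 were lower. Captured Ngp was near the floor on most arrays, with a median of 4.58 in study 1 and 4.99 in study 2, and reached 8.82 and 9.85 on single arrays. It exceeded the array's median on 7 of 25 arrays of study 1 and 11 of 30 of study 2, Camp on 8 and 9, and Ltf on 1 and 7. Ltf exceeded it on no array where Ngp did not. S100a8 exceeded it on 25 of 25 and 30 of 30. The pairs of captured arrays from 1 specimen of study 2 show how uneven the granule transcripts were. At day 7 the arrays of specimen 1 read 9.85 and 5.33 for Ngp, a gap of 4.51, and the array with more Ngp also held more Ltf (by 3.28) and Camp (by 2.68) and also more Lcn2 (by 2.02) and S100a8 (by 0.83), with Csf3r at −0.46 and S100a9 at −0.26. At day 33 the arrays of specimen 3 read 7.74 and 4.28 for Ngp, with gaps of 2.24 for Ltf, 2.16 for Camp and −1.06 for Lcn2. Of 14 pairs, the one with the array that stood apart left out, 8 had an Ngp gap over 1 on the log2 scale. In 8 of these 8 the same array was higher in Ltf and in Camp, while it was higher in S100a8 in 3, in S100a9 in 2, in Csf3r in 2, in Mpo in 1 and in Lcn2 in 5.

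**Figure D4:**
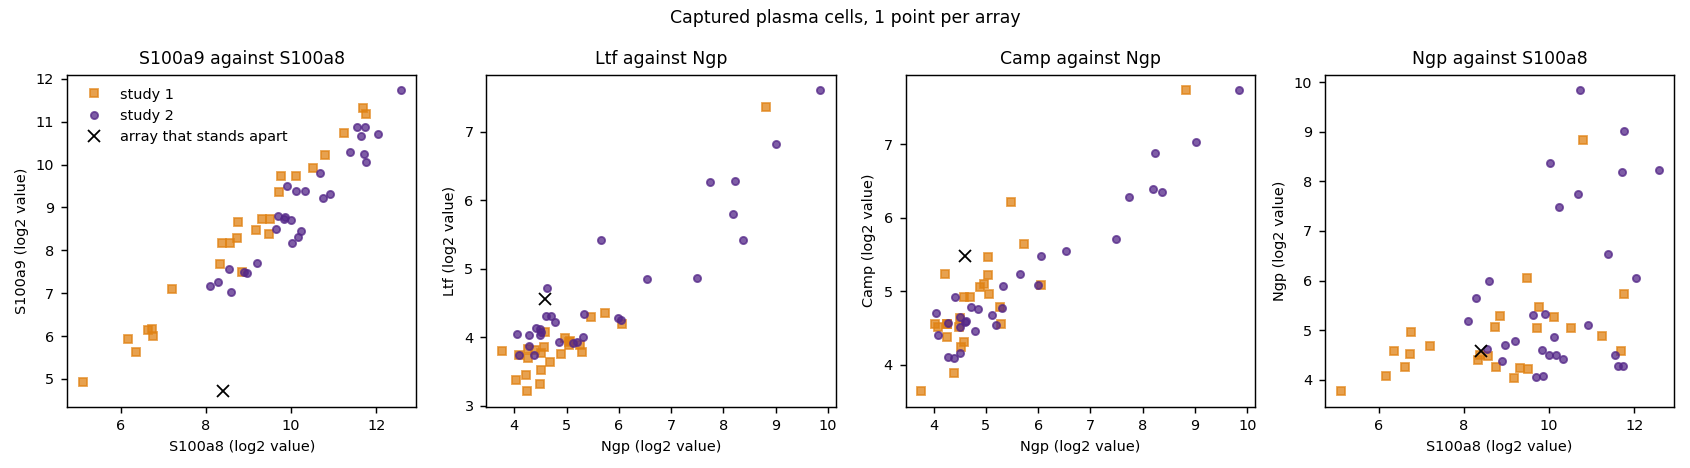
Deposited log2 values on 55 captured arrays, 1 point each, for S100a9 against S100a8, Ltf and Camp against Ngp, and Ngp against S100a8, with study 1 as squares, study 2 as circles and the array that stands apart as a cross. S100a9 follows S100a8 along its whole range, Ltf and Camp rise with Ngp on the few arrays where Ngp is high, and arrays of high S100a8 hold Ngp from 4 to nearly 10.

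Over all specimens the pattern most like that of Ngp was that of Ltf and then Camp. With values centred within each study, Pearson's r with Ngp over 23 whole granuloma specimens was 0.88 for Ltf and 0.82 for Camp, ranks 1 and 2 of 8591 genes. Mpo followed at rank 4 (0.64). Over 30 captured specimens Ltf (0.92) and Camp (0.89) again had ranks 1 and 2, while Mpo was at rank 1249 (0.16). Lcn2 was at rank 8 in captured cells (0.55, and rank 7 without the array that stood apart) and at rank 997 in whole granuloma (0.30). The nearest genes outside the 10 had lower values: Clcn4 (0.65), Cpne2, Mc2r, Lrrk1 and Fzd4 in whole granuloma and Sfswap (0.58), Eif4a2, Brd3, Atf7 and Wfdc21 in captured cells. Without the array that stood apart Sfswap went from rank 3 to rank 109 and Atf7 from 6 to 28, while Ltf and Camp kept ranks 1 and 2. For S100a8 the nearest gene was S100a9 in both tissue types (r = 0.93 and 0.84, and 0.98 in captured cells without the array that stood apart). Among the other genes S100a1 (0.86), S100a10 (0.85), Ccl2 (0.85), Cyb5a and S100a16 were nearest in whole granuloma and Rab32 (0.81), Arg2, Eps8, Chil1 and Ifitm6 in captured cells, where without that array they had ranks 4, 10, 25, 12 and 14. S100a8 and Ngp correlated at 0.35 in whole granuloma and 0.47 in captured cells, where S100a8 was at rank 27 and S100a9 at rank 86 of the genes most like Ngp (26 and 72 without that array). The points of these correlations share array preparation and RNA quality, and they are a description of these specimens.

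In whole granuloma of study 2 Ngp, Ltf and Camp were highest in the same 2 specimens. Lcn2, also a secondary granule gene, was highest in specimen 2 of day 7 (10.61). It read 9.10 and 8.73 in the 2 specimens highest in the others. At day 33 of study 2 specimens 1 and 3 read 11.74 and 11.83 for Ngp, against 8.89 for specimen 2. Ltf read 9.65 and 9.44 against 7.18, and Camp 8.95 and 9.00 against 6.38. S100a8 of the same 3 specimens read 11.37, 11.42 and 11.01 and S100a9 9.13, 8.99 and 8.99, so that the S100 pair did not share the gap. The day 33 minus day 7 difference was 2.05 for Ngp (SE 0.91, adjusted p = 0.164) and 1.57 for Ltf (SE 0.65, 0.133), and 0 of 9 members were called in limma where 5.61% of genes were, against 2 at an unadjusted p under 0.05, Ngp and Ltf. Without specimen 2 of day 33 Ltf passed (2.36, adjusted p = 0.0478). In whole granuloma of study 1 specimen 1 of day 7 and specimen 10 of day 17 held the most Ngp (8.00 and 8.33) and the most Ltf (6.09 and 5.74) and Camp (5.53 and 6.36), while the specimens that shared their days read 5.57 and 5.60 for Ngp. No member was called between days 7 and 33 of whole granuloma or captured cells of study 1 (0 of 9 in each, where 0.0233% and 0.0116% of genes were, and at an unadjusted p under 0.05 0 and 1, Csf3r).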

How the data were processed

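Per the labels, RNA went through 2 rounds of linear amplification before hybridisation to Affymetrix arrays. The deposited values are log2 values, and the submitters' processing notes name RMA and Partek, with no version. The table held 22690 probe sets on 82 arrays. Of these 20380 had 1 gene symbol, 691 several, 1555 none, and 64 were controls, and a gene was read from its probe set with the highest mean. Arrays of 1 specimen and tissue type were averaged, which gave 53 averages in 19 groups from 33 codes. They were fitted together in limma 3.58.1 (R 4.3.3), with a random block for each specimen code (estimated correlation 0.121 on deposited and 0.112 on quantile-normalized values) and Benjamini-Hochberg adjustment over the 8592 genes tested. Fits were tested on simulated data. Where members are counted at an unadjusted p, the share of all genes at that threshold was not counted. Depth has no counterpart on arrays, and the number of specimens limits the precision. The alternatives were other scalings, filters, blocks, units, covariates and samples left out. Leaving out the array that stood apart was chosen after seeing the data. The members and gene lists were chosen with earlier results of these data known. Of each other list up to 4 called genes with the largest change are named, and further ones were named after their values were seen. Promoter windows are RefSeq's, build GRCm38.p6.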

Additional observations from a re-analysis of the deposited data

Results flagged for a closer look

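For each of the 10 genes, captured groups of 4 to 10 arrays were searched for an array far from the rest. Of 100 combinations of a gene and a group, 15 held one. Genes that move together and arrays of 1 specimen are not independent, so no rate expected by chance is set against this. One of the 15 is the array that stood apart, which read 7.08 for Mpo at day 49 of study 2 (specimen 2) against 3.96 to 4.80 on the others. For the secondary granule genes the far array was high in most cases. Ltf read 7.36 on the single array of 1 specimen at day 46 of study 1 (others 3.33 to 4.19), and Camp 7.73 there (others 4.31 to 5.08). At day 17 of study 2 an array of specimen 1 read 4.86 for Ltf (others 3.74 to 4.01) and 7.49 for Ngp (others 4.09 to 5.31), and at day 33 an array of specimen 3 read 6.27 for Ltf (others 3.87 to 4.25). At day 7 of study 1 an array of specimen 3 was low in Ltf, at 3.38 (others 3.78 to 3.93).

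S100a9 was low on an array of specimen 11 at day 17 of study 1, at 6.15 (others 8.16 to 8.73), and high on an array of specimen 1 at day 105 of study 2, at 9.39 (others 7.04 to 7.71). Specimen 5 of day 7 of study 1, whose arrays had opposite sex-linked transcripts, held an array with Csf3r at 6.98 (others 5.63 to 5.79) and Lcn2 at 3.75 (others 5.04 to 5.34). The dim genes were flagged 4 more times: Mmp8 at 4.59 at day 105 of study 2 (specimen 3, others 3.80 to 3.99), Elane at 4.64 at day 17 of study 2 (specimen 3, others 5.09 to 5.25), Mpo at 3.77 at day 33 of study 1 (specimen 5, others 4.08 to 4.18) and Mpo at 5.42 at day 7 of study 2 (specimen 2, others 4.07 to 4.47).

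The captured minus whole difference differed between the studies, in limma's test of study 2 minus study 1, for S100a8 (1.88), Elane (0.56) and Camp (−1.19).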

How the results depend on the processing

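Over 17 comparisons the alternatives gave 1670 values of single genes. Of these 1554 kept direction and side of the threshold, 32 lost the call and 40 gained it. A further 8 changed sign with a call under at least 1 setting, and 36 changed sign without a call under either. The 1670 include Mmp8, which was tested only with no filter and otherwise counted as not called. They also include the spans over days, which have no sign to change. Of the 8, 7 were on the deposited values: in study 2 captured minus whole became −0.67 for S100a8, −0.41 for S100a9, −0.88 for Elane and −1.79 for Mpo, and study 2 minus study 1 became −0.85 for Csf3r, −0.96 for Elane and −1.23 for Mpo. With the 3-prime to 5-prime covariate S100a9 became −0.26 in study 2. Among the 36, on the deposited values, were Mmp8 in study 2 (−1.31) and S100a9 in study 1 (−0.48). Of 167 counts of called members 122 were equal to the reported one, 21 differed within 1.5 times and 24 by more, which follow. The count for captured cells over days became 3 with arrays as the unit, 2 without the array that stood apart, and 1 with the strict filter, the covariate, the title year as a term or the earlier title year alone in study 1 (0 in the report). In study 2 it became 4 with arrays or without that array and 1 with no filter or the covariate (2 in the report). Day 33 against 7 of captured cells of study 2 became 0 on quantile values, with no filter or with the strict one. The last day became 1 in captured cells of study 1 with arrays, the title year as a term or the later year alone, and in whole granuloma of study 2 0 with arrays and 1 with codes split by title letter. Study 2 minus study 1 became 6 on deposited values, 5 with arrays, and 1 with the strict filter or the covariate, and captured minus whole became 2 (study 1) and 1 (study 2) with the covariate. The strict filter removes Camp, Elane and Mpo from the genes tested. For the other changes the cause was not tested.

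Leaving out 1 specimen code at a time gave 3 to 6 called members for captured minus whole in study 1, 7 to 8 in study 2 and 2 to 4 for their difference. Over days it gave 0 to 1 in captured cells of study 1, 1 to 4 in captured cells and 1 to 4 in whole granuloma of study 2. For the last day it gave 0 to 3 in whole granuloma and 0 to 1 in captured cells of study 2, for day 33 0 to 1 in both, and 0 for the remaining comparisons. Without the replicate block Camp lost its difference between studies (−1.18, adjusted p = 0.0642), and with a fixed replicate block in study 2 Camp passed for captured minus whole (−0.58, adjusted p = 0.0275); no other call of a member changed with the block. No second probe set of a member exists among those annotated, so that this alternative was not run. Signal near the floor limits Elane, Mpo and Mmp8, and in part Ltf and Camp. In study 1 Ltf exceeded the column median in 1 of 15 captured and 1 of 8 whole specimens, and Camp in 5 of 15 and 1 of 8. In captured cells of study 2 they did so in 3 and 4 of 15.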
